A study of Mus musculus with 26 samples.

Results

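Collagen chain genes were followed through 26 mouse RNA-sequencing libraries that ran from embryonic fibroblasts, through their conversion by reprogramming factors, to pluripotent stem cell lines. Members were the genes of the deposited expression table whose symbol reads Col, a number, a, and a number, and whose value was 10 or more in at least 2 libraries. The table held 44 such genes among 18198, and 42 passed, of 16038 genes of the table that passed the same filter. Col13a1, which ranged from 0 to 8, and Col6a6, which ranged from 0 to 22, did not pass, so the counts below speak for the 42 alone. By the structure of the protein, 11 of the 42 were fibrillar, 9 formed networks, 9 were fibril-associated and 13 belonged to other kinds.

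The study followed the making of induced pluripotent stem cells (iPSC) from mouse embryonic fibroblasts (MEF), and asked what Jun and Sap30 do to it. MEF were grown in medium with 10% FBS and taken at passage 2. Embryonic stem cells (ESC, strain CBA/CaJ X C57BL/6J, passages 20 to 24) and iPSC (from picked colonies, passages 5 to 8) were grown in N2B27 medium with 2i and LIF. OSK libraries came from fibroblasts infected with retroviruses for Pou5f1, Sox2 and Klf4 and were labelled day 0, 1, 3, 5 or 7. OSK-cJun libraries carried Jun as well and were labelled day 0, 1, 3 or 7. OSK-shSap30 libraries, on day 7, carried the 3 factors and a lentiviral hairpin against Sap30, a component of the Sin3 histone deacetylase complex. The infected cells were kept in iCD1 or in an ESC medium, and the labels do not say which medium each sample had. Each of the 13 groups had 2 libraries, and nothing in the labels says that the 2 came from separate cultures, so p-values measure the spread between libraries, which may be technical.

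Jun stood at 4616 and 5023 in OSK-cJun on day 0 and at 875 and 620 in OSK, and at 8981 and 6124 against 1010 and 582 on day 7. Sap30 stood at 20 and 41 with the hairpin, at 301 and 378 in OSK on day 7 and at 74 and 93 in OSK-cJun on day 7. Pou5f1 stood at 11662 and 8974 in OSK on day 0 and at 2 and 0 in MEF, so the libraries labelled day 0 were not those of uninfected fibroblasts. The 7 fibroblast markers examined (Thy1, Pdgfra, Pdgfrb, Twist1, Prrx1, Vim and Fn1) had a mean of 50 or more in MEF, and the 7 pluripotency markers (Pou5f1, Nanog, Zfp42, Esrrb, Dppa5a, Tdgf1 and Utf1) had one in both ESC and iPSC. The 2 OSK libraries of day 5 stood apart from each other: Pou5f1 was at 656 and 21544. Day 5 values are therefore given beside the others and carry no result by themselves.

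The deposited values were a normalised score and not read counts. In every library the sorted values were the same to within 2, the highest 10 genes were listed at 21544, the next 10 at 11662 to 11677 and the next 10 at 8974 to 8995. A step from the second level to the top is 0.88 on the log2 scale whatever the RNA did, and a gene at 21544 may have been higher than the table can show. Col1a2 was at 21544 in 17 of the 26 libraries, Col1a1 in 5, Col5a2 in 4, Col3a1 and Col12a1 in 2 each and Col5a1 in 1, so folds that start there are bounded by the scale. Libraries that share a step show no spread, as for Col1a2 in MEF (standard deviation 0). The SE and p-values of genes at these steps may therefore be too small. A value compares a gene between libraries, not a gene with another gene, and the sequencing depth behind it is unknown. In bulk RNA, fewer cells of a type and less RNA per cell cannot be told apart.

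Collagens are the main structural proteins of the extracellular matrix, each a rope-like helix of several alpha chains. In some types the chains come from the same gene, in others from separate genes. Fibrillar collagens (types I, II, III, V, XI, XXIV and XXVII) build the fibres of skin, tendon, bone and cartilage, and fibril-associated collagens (types IX, XII, XIV, XVI, XIX, XX, XXII) coat or link those fibres. Network collagens form sheets: type IV is the scaffold of basement membranes, and types VIII and X make short-chain lattices. Fibroblasts are the classic collagen-secreting cells, and loss of the mesenchymal programme is an early step of reprogramming to pluripotency.

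Fibroblasts and embryonic stem cells stood at opposite ends for most collagens. Of the 42 members, 31 were lower in ESC than in MEF and 1 was higher, by limma with Benjamini-Hochberg adjusted p below 0.05 and a log2 fold of 1 or more. Folds are differences of mean log2(value + 1) throughout. Across all genes tested, 20.6% were lower and 22.4% higher by the same rule. The median log2 fold was -5.74 over the members and 0.13 over all genes tested. By class, 11 of 11 fibrillar members, 8 of 9 network members, 4 of 9 fibril-associated members and 8 of 13 others were lower.

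Among the fibrillar chains, Col1a1, which forms the bulk of skin and bone collagen with Col1a2, stood at 21544 and 21544 in MEF and at 8 and 200 in ESC. Its partner Col1a2 stood at 21544 and 21544 in MEF and 13 and 113 in ESC. The MEF libraries lay far above the ESC libraries for both chains, and Col1a1 fell by 8.98 (SE 0.87, adjusted p = 2.29e-07) and Col1a2 fell by 9.07 (SE 0.63, adjusted p = 4.87e-09), each from the top of the scale. Col3a1, the chain of pliable tissues such as skin and vessel wall, fell by 7.47 (SE 0.45, adjusted p = 4.36e-10), from 21544 and 21544 to 81 and 178. Col5a1 and Col5a2 make type V collagen, which starts new fibrils and sets their width. Col5a1 was at 11663 and 21544 in MEF and 65 and 114 in ESC, and Col5a2 at 11677 and 11677 in MEF and 86 and 141 in ESC. Col5a3, a type V chain of more restricted tissues, was at 702 and 508 in MEF and 7 and 10 in ESC. Col11a1, a chain of cartilage fibrils, was at 4631 and 3784 in MEF and 84 and 101 in ESC. The log2 folds of these 4 were -7.51, -6.72, -5.99 and -5.49. In none of them did the groups overlap, which adds little, since all 4 were called.

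Col2a1, the main fibrillar chain of cartilage, had MEF libraries far apart, at 1904 and 25, with 10 and 8 in ESC. It fell by 4.48 (SE 1.55, adjusted p = 0.0217), but the call was lost when 1 library was left out, with a fold of -4.63 without ESC replicate 1, -4.34 without ESC replicate 2 and -1.39 without MEF replicate 1. The 6 cartilage markers of the table (of Acan, Sox9, Matn1, Matn3, Comp, Hapln1 and Sox5) summed to 514 in the first MEF library and 130 in the second, with Acan at 207 and 30 and Hapln1 at 93 and 0. Whether cartilage cells in that library bear on Col2a1 was not tested.

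Of the basement membrane chains, Col4a1 was at 6129 and 5030 in MEF and 18 and 22 in ESC, and Col4a2 at 3407 and 3407 in MEF and 7 and 31 in ESC. These 2 chains assemble together in nearly every basement membrane, and their genes lie head to head on chromosome 8, with annotated starts 21 bases apart (GENCODE M21, GRCm38). Col4a1 fell by 8.05 (SE 0.24, adjusted p = 2.07e-13) and Col4a2 fell by 7.73 (SE 0.43, adjusted p = 2.18e-10). Col8a1, of the lattice beneath vascular and corneal endothelium, fell by 8.87 (SE 0.96, adjusted p = 8.05e-07), from 2150 and 3262 to 0 and 31. Col4a5, of kidney and smooth muscle basement membranes, was at 604 and 1706 in MEF and 0 and 92 in ESC, a log2 fold of -6.72 (SE 1.23, adjusted p = 0.000203) that was not called with these libraries alone (adjusted p = 0.0576). Its neighbour Col4a6 was at 87 and 63 in MEF and 0 in both ESC libraries.

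Col12a1, which binds type I fibrils and is abundant in tendon and muscle fascia, went from 21544 and 21544 to 8 and 67, a log2 fold of -9.77 (SE 0.74, adjusted p = 1.24e-08) that starts at the top of the scale. Col16a1, another fibril-associated chain, was listed at 0 in both ESC libraries and at 831 and 860 in MEF. The type VI chains Col6a1, Col6a2 and Col6a3 form beaded microfilaments around cells. Col6a1 stood at 3034 and 3774 in MEF and 3 and 57 in ESC, Col6a2 at 2616 and 3771 in MEF and 1 and 11 in ESC, and Col6a3 at 3415 and 4312 in MEF and 5 and 15 in ESC. All 3 fell, with log2 folds of -7.80, -9.32 and -8.61. Col7a1, of the anchoring fibrils of skin, went from 491 and 867 to 6 and 7, a log2 fold of -6.45 (SE 0.66, adjusted p = 3.85e-07).

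Col18a1, a basement membrane collagen whose end fragment is endostatin, did not share this pattern. It stood at 637 and 566 in MEF and 815 and 596 in ESC, overlapping, with a fold of 0.21 (SE 0.40, adjusted p = 0.684) that turned to -0.011 without ESC replicate 1. The member called higher in ESC was Col9a2, a chain of the type IX collagen of cartilage, at 132 and 44 against 25 and 0. Its call was lost when 1 library was left out, with folds of 3.14 without ESC replicate 1 and 1.57 without MEF replicate 2. In all, 27 of the 32 calls held whichever 1 library was left out, and besides Col2a1 and Col9a2 the calls of Col4a4, Col11a2 and Col23a1, each under 50 in every library, did not.

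**Figure D1:**
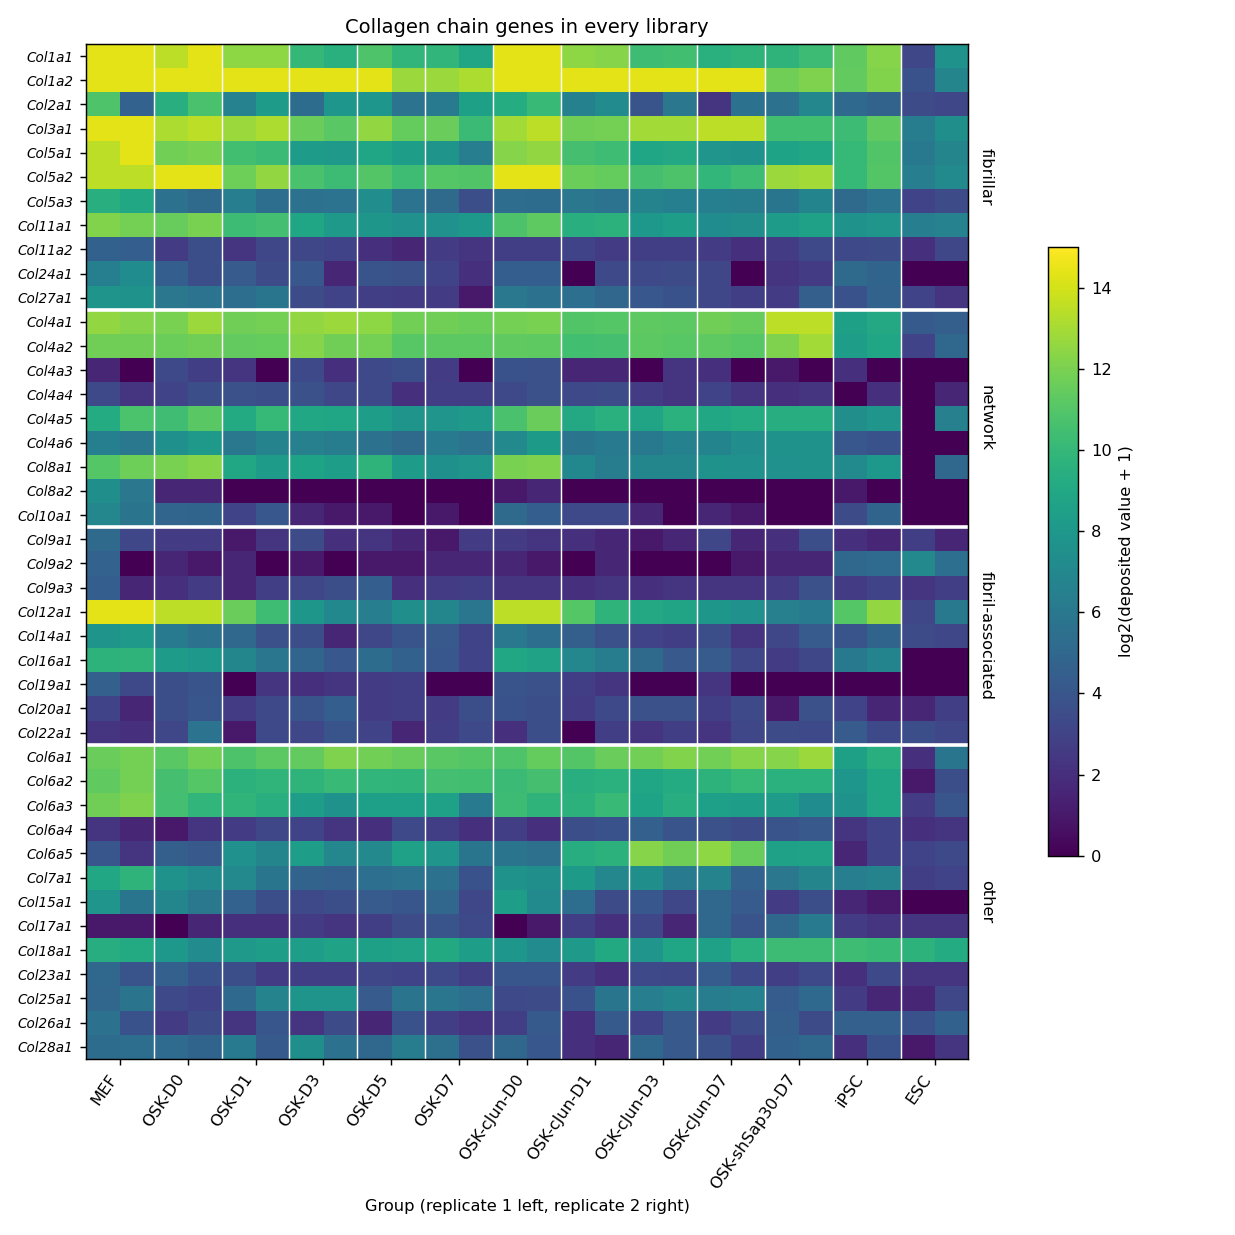
Deposited value of each collagen chain gene (rows, by class) in each library (columns, by group), shown on a log2(value + 1) colour scale. Yellow is high and dark blue low: the MEF columns are brighter than the ESC columns in most rows of the main fibril genes, while Col18a1 keeps a middle shade throughout, between 151 and 1278.

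The iPSC lines differed from ESC in 20 of the 42 collagens, and each of the 20 was higher in iPSC. The background over all genes tested was 4.57% higher and 1.65% lower, and the median log2 fold was 1.46 over the members and 0.00 over all genes. The 20 were 8 of 11 fibrillar, 6 of 9 network, 2 of 9 fibril-associated and 4 of 13 other members. The comparison shares its iPSC libraries with the comparison of iPSC and MEF below, and its ESC libraries with that of ESC and MEF above.

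Col1a1 stood at 2619 and 5023 in iPSC and 8 and 200 in ESC, and Col1a2 at 2725 and 4629 in iPSC and 13 and 113 in ESC. The folds were 6.41 (SE 0.87, adjusted p = 0.000116) and 6.47 (SE 0.63, adjusted p = 3.48e-06). Neither pair of groups overlapped, which adds little, since both genes were called. Fitted on the iPSC and ESC libraries alone, the Col1a1 call was lost (adjusted p = 0.0946), as were those of Col6a1 (0.0999) and Col8a1 (0.1). Col12a1, at 2150 and 6115 in iPSC, was higher by 7.20 (SE 0.74, adjusted p = 5.82e-06). Col16a1, at 67 and 110 in iPSC and 0 in both ESC libraries, had a fitted fold of 6.44 that depends on the pseudocount.

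The same held for the type V and type III chains, which build mixed fibrils with type I. Col5a1 was at 1076 and 1942 in iPSC, Col5a2 at 1073 and 1997 and Col3a1 at 1229 and 2550, higher than ESC by 4.05, 3.72 and 3.87. In the basement membrane pair, Col4a1 was at 364 and 535 and Col4a2 at 331 and 463, higher by 4.40 (SE 0.24, adjusted p = 1.74e-09) and, for Col4a2, 4.62 (SE 0.43, adjusted p = 1.5e-06). The microfilament chains were at 368 and 686 for Col6a1, 233 and 472 for Col6a2 and 206 and 477 for Col6a3, higher by 5.05, 6.09 and 5.00. Col8a1, at 144 and 257, was higher by 5.10 (SE 0.96, adjusted p = 0.00252), and Col7a1, at 84 and 103, by 3.65 (SE 0.66, adjusted p = 0.00175). In each of these 14 genes the second iPSC library was above the first, and both were above both ESC libraries. The separation from ESC adds little, since the genes were named for their calls. Col11a1, at 196 and 226, was higher by 1.18 (SE 0.26, adjusted p = 0.00653), a call lost at 1.08 without iPSC replicate 2 and 1.05 without ESC replicate 1. Col4a5, at 168 and 228, was higher by 4.35 (SE 1.23, adjusted p = 0.0412), lost at 4.57 without iPSC replicate 1, 4.13 without iPSC replicate 2 and 1.08 without ESC replicate 1, and Col5a3, at 35 and 52, by 2.22 (SE 0.52, adjusted p = 0.012), lost at 1.94 without iPSC replicate 2 and 1.99 without ESC replicate 1.

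Col18a1 stood at 1278 and 1162 in iPSC, with a fold over ESC of 0.81 (SE 0.40, adjusted p = 0.29). In the same libraries Thy1 was at 208 and 372 in iPSC and 2 and 8 in ESC, and Prrx1 at 112 and 217 in iPSC and 0 and 14 in ESC. These are 2 of the 7 fibroblast markers. The others are given only within the sum, so these 2 do not speak for the list. The summed level of the 7 fibroblast markers was 24382 to 25953 in iPSC, 12522 to 22673 in ESC and 40339 to 42015 in MEF, most of it Vim and Fn1. The pluripotency markers summed to 22366 to 22389 in iPSC and 22130 to 22261 in ESC. The part of remaining fibroblast-type cells in the iPSC collagen values was not tested.

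**Figure D2:**
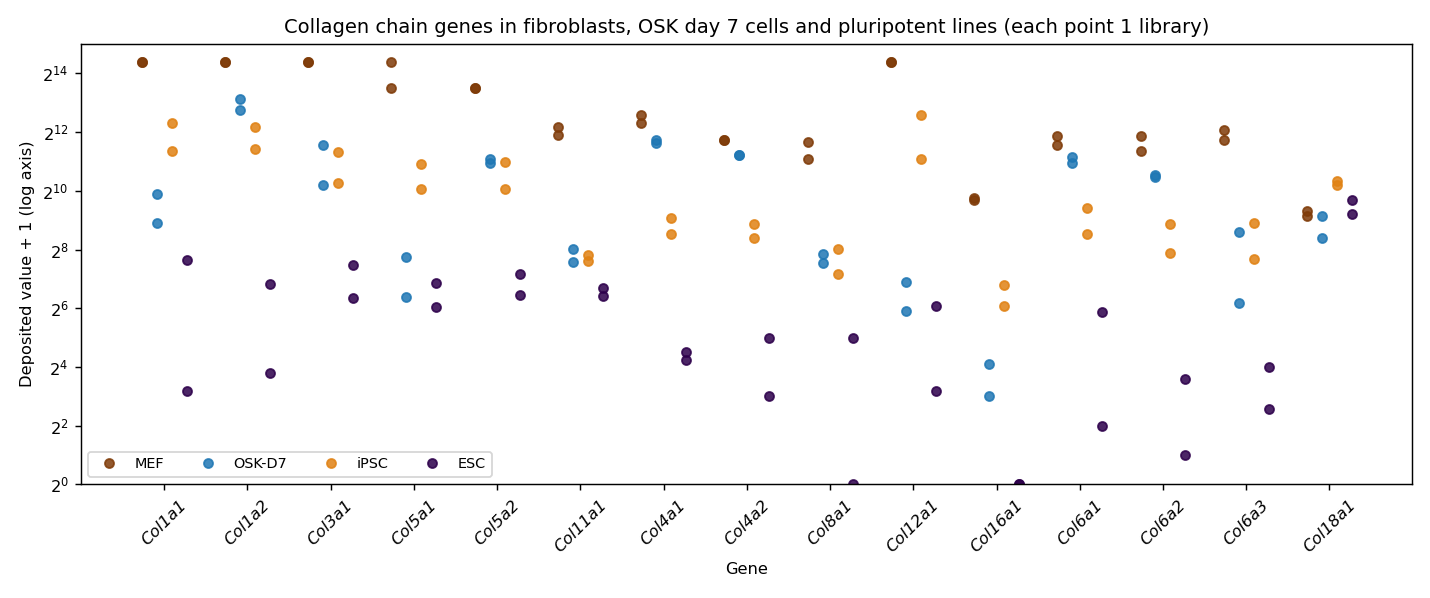
Deposited value plus 1 (log axis) of 15 collagen chain genes in the MEF, OSK day 7, iPSC and ESC libraries, with 1 point per library. In 14 of the genes the iPSC points sit between those of MEF and ESC, as for Col12a1 (MEF 21544, iPSC 2150 and 6115, ESC 8 and 67). The Col18a1 points of MEF, iPSC and ESC lie within 566 to 1278, and those of OSK day 7 lie below them (mean 449.5).

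Against MEF, 28 of the 42 members were lower in iPSC and 2 were higher, with a background of 19.7% lower and 20.2% higher. The median log2 fold of the members was -2.59 and that of all genes 0.04. Of the chains at the top of the scale in MEF, Col1a1 fell by 2.57 (SE 0.87, adjusted p = 0.0211), Col1a2 fell by 2.60 (SE 0.63, adjusted p = 0.0026) and Col12a1 fell by 2.57 (SE 0.74, adjusted p = 0.00793). With MEF at the top of the scale, the falls may be larger than these values show. The Col1a1 call was lost at -2.10 without iPSC replicate 1, -2.57 without MEF replicate 1 and -2.57 without MEF replicate 2, and that of Col12a1 at -1.82 without iPSC replicate 1. Col8a2, the partner of Col8a1, went from 175 and 61 in MEF to 1 and 0 in iPSC, a log2 fold of -6.21 (SE 0.60, adjusted p = 2.5e-07). Col15a1, a close relative of Col18a1, went from 229 and 56 to 2 and 1, a log2 fold of -5.55 (SE 0.76, adjusted p = 1.25e-05). Col11a1 fell by 4.31 (SE 0.26, adjusted p = 1.72e-09) and Col4a1 fell by 3.65 (SE 0.24, adjusted p = 4.87e-09). Of the 2 members called higher, Col18a1 rose by 1.02 (SE 0.40, adjusted p = 0.0395), which was lost at 0.95 without iPSC replicate 1, 1.09 without iPSC replicate 2, 1.10 without MEF replicate 1 and 0.93 without MEF replicate 2. The other, Col9a2, at 31 and 37, rose by 2.77 (SE 1.06, adjusted p = 0.0366), lost at 2.90 without iPSC replicate 1, 2.65 without iPSC replicate 2 and 0.42 without MEF replicate 2.

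Between MEF and OSK on day 0, 6 of 42 members were lower and 1 was higher, with a background of 2.06% lower and 4.92% higher. Col5a3 went from 702 and 508 to 50 and 35, a log2 fold of -3.80 (SE 0.52, adjusted p = 0.000131). Col8a2 went from 175 and 61 to 2 and 2, a log2 fold of -5.12 (SE 0.60, adjusted p = 2.61e-05), and from day 1 on it was listed at 0 in the OSK libraries. Col5a1 went from 11663 and 21544 to 3608 and 4007, a log2 fold of -2.06 (SE 0.38, adjusted p = 0.00194). These 3 calls held whichever 1 library was left out, and the other 4 (Col18a1, Col25a1, Col27a1 lower, Col4a6 higher) did not, the count being 3 without OSK-D0 replicate 2, 4 without MEF replicate 1 and 3 without MEF replicate 2. Col1a2 was at 21544 in all 4 libraries, where a difference cannot be seen. Col5a2 was at 11677 and 11677 in MEF and 21544 and 21544 on day 0, with a fold of 0.88 (SE 0.32, adjusted p = 0.0994) under the size threshold.

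During the OSK course most of the abundant fibril-building collagens fell, whereas the basement membrane pair Col4a1 and Col4a2 and the microfilament chain Col6a1 gave no call. On day 7 against day 0, 16 of 42 members were lower (background 12.6%) and 4 higher (background 11.3%), with a median of -1.48 over the members and 0.06 over all genes. The 16 were 6 fibrillar, 3 network, 4 fibril-associated and 3 other members, and 12 of the 20 calls held whichever 1 library was left out. On day 1, 8 were lower (background 3.12%) and 2 higher (3.18%), and the 10 calls fell to between 2 and 4 with any 1 library left out. On day 3, 15 were lower (8.69%) and 2 higher (8.55%). On day 5, 14 were lower (9.86%) and 3 higher (9.8%), and the 17 calls fell to 11 without OSK-D5 replicate 2, OSK-D0 replicate 1 or OSK-D0 replicate 2. The counts of higher members lay near or under the background share on each of these days. These 4 comparisons share the day 0 libraries, so their calls are not independent of one another.

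Col12a1 fell over the course. It stood at 11663 and 11662 on day 0, 3030 and 1291 on day 1, 247 and 126 on day 3, 85 and 176 on day 5 and 117 and 59 on day 7. Every library after day 0 was below every day 0 library, and the day 7 fold was -7.11 (SE 0.74, adjusted p = 1.88e-06). Col16a1 went from 306 and 257 on day 0 through 117 and 59 on day 1 and 29 and 16 on day 3 to 16 and 7 on day 7, a log2 fold of -4.59 (SE 0.49, adjusted p = 1.71e-06).

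Col1a1 and Col1a2, the partner chains of type I collagen, gave different calls. Col1a1 stood at 11667 and 21544 on day 0, 5488 and 5488 on day 1, 1001 and 720 on day 3, 1904 and 943 on day 5 and 943 and 476 on day 7. Its day 7 libraries were far below day 0, a log2 fold of -4.56 (SE 0.87, adjusted p = 0.00073). Col1a2 remained at 21544 in both libraries up to day 3, was at 21544 and 6942 on day 5 and at 6942 and 8993 on day 7. Its day 7 fold was -1.45 (SE 0.63, adjusted p = 0.094), not past the threshold, and since it started at the top of the scale a fall above that level would not be seen. The difference between the 2 chains was not tested.

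Type III and type V chains fell with Col1a1. Col3a1 stood at 8995 and 11677 on day 0, 6943 and 8995 on day 1, 3041 and 2266 on day 3, 6138 and 2810 on day 5 and 3041 and 1183 on day 7, a log2 fold of -2.43 (SE 0.45, adjusted p = 0.000445). On the same days Col5a1 stood at 3608 and 4007, then 1400 and 1188, 298 and 273, 448 and 327, and lastly 216 and 83, a log2 fold of -4.82 (SE 0.38, adjusted p = 7.88e-08). Col5a2 stood at 21544 and 21544, then 3279 and 6138, 1636 and 1229, 2043 and 1283, and lastly 2154 and 1951, a log2 fold of -3.39 (SE 0.32, adjusted p = 4.37e-07). For all 3 the day 0 and day 7 libraries did not overlap, which adds little, since the genes were called. For Col5a2 the day 1 fold of -2.26 (SE 0.32, adjusted p = 0.000293) also held whichever 1 library was left out. Col11a1 stood at 2950 and 4026 on day 0, 1244 and 1439 on day 1, 442 and 264 on day 3, 246 and 190 on day 5 and 191 and 256 on day 7, with a fold of -3.96 (SE 0.26, adjusted p = 1.37e-08). Col27a1, a minor fibrillar chain of cartilage, fell by 4.02 (SE 0.57, adjusted p = 3.69e-05), from 60 and 51 to 5 and 1. Col2a1 had scattered libraries throughout, with 683 and 1674 on day 0 and 70 and 371 on day 7, and Col5a3 was already low, at 50 and 35 on day 0 and 35 and 11 on day 7.

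**Figure D3:**
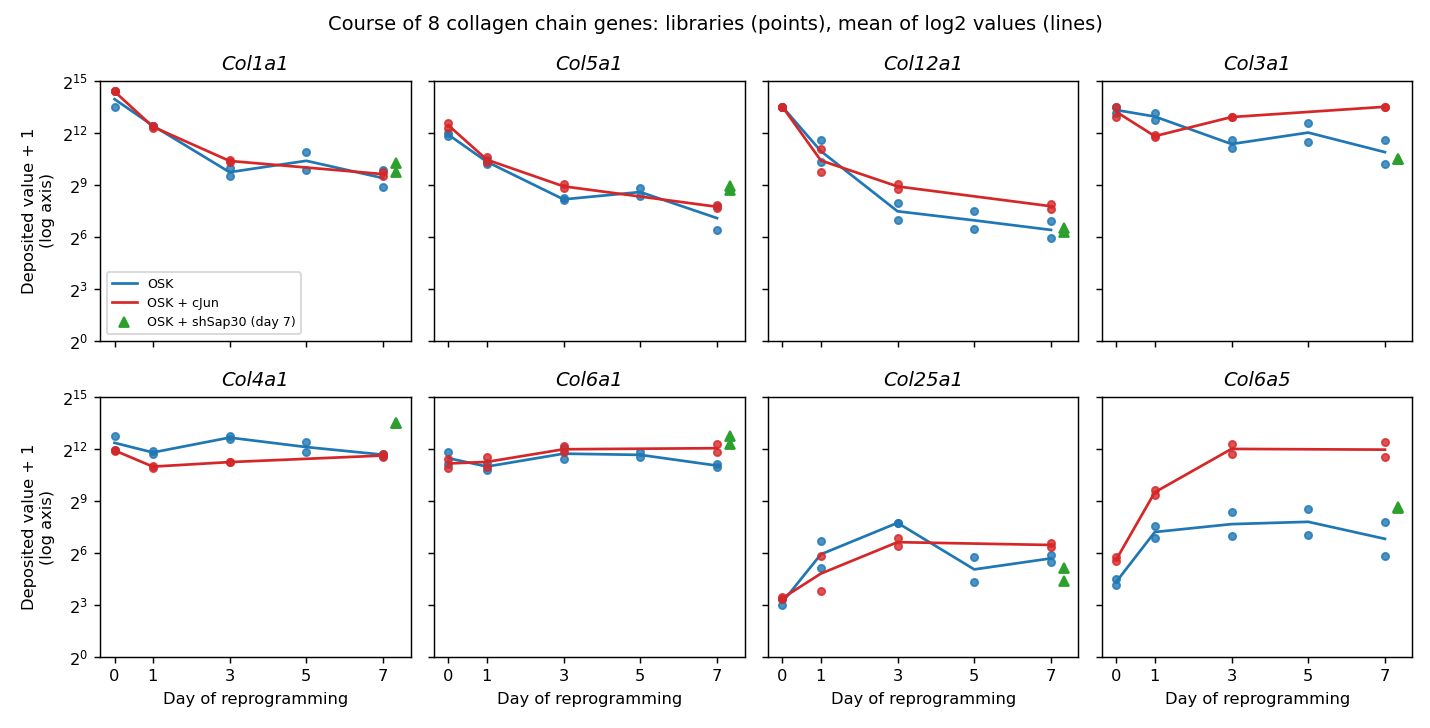
Deposited value plus 1 (log axis) by labelled day for 8 collagen chain genes in OSK (blue) and OSK-cJun (red) libraries, with 1 point per library, lines through the mean of the log2 values and green triangles for OSK-shSap30 on day 7. Col12a1 and Col5a1 go down in both series, Col4a1 and Col6a1 stay between 1769 and 6935 in the blue and red points, and Col6a5 and Col3a1 part between the series on day 7.

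The basement membrane pair gave no call on day 7. Col4a1 stood at 4019 and 6935 on day 0, 3415 and 3777 on day 1, 6129 and 6935 on day 3, 5495 and 3614 on day 5 and 3415 and 3158 on day 7. The day 7 fold was -0.68 (SE 0.24, adjusted p = 0.0381), under the size threshold, and -1.08 without OSK-D0 replicate 1, which would count as a call. Col4a2 stood at 3152 and 3407 on day 0, 5017 and 3407 on day 3 and 2402 and 2402 on day 7, with a fold of -0.45 (SE 0.43, adjusted p = 0.476). Other network chains were lower on day 7. Col8a1 fell by 4.44 (SE 0.96, adjusted p = 0.00195), from 4006 and 5014 to 184 and 228, and was already at 510 and 305 on day 1. Col10a1, of hypertrophic cartilage, fell by 4.36 (SE 0.67, adjusted p = 8.04e-05), from 29 and 27 to 1 and 0. Col4a5 went from 1355 and 2317 to 222 and 260, a fold of -2.88 (SE 1.23, adjusted p = 0.0863), and Col4a6 fell by 1.90 (SE 0.37, adjusted p = 0.000679), from 186 and 277 to 71 and 51.

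Within type VI collagen the 3 chains that assemble into 1 molecule had different values over the course. Col6a1 stood at 2260 and 3611 on day 0, 2715 and 4307 on day 3 and 2260 and 1989 on day 7, a fold of -0.43 (SE 0.76, adjusted p = 0.725) with overlapping libraries. Col6a2 stood on those days at 1500 and 2074, then 864 and 1139, then 1478 and 1417, a fold of -0.29 (SE 0.53, adjusted p = 0.741). Col6a3 stood at 1461 and 932, then 323 and 198, then 382 and 71, a log2 fold of -2.81 (SE 0.62, adjusted p = 0.00236) that was lost at -1.61 without OSK-D7 replicate 2. Col6a5, a long chain that resembles Col6a3 and can take its place in the molecule, rose. It stood at 22 and 17 on day 0, 190 and 114 on day 1, 330 and 124 on day 3, 130 and 379 on day 5 and 222 and 56 on day 7. Every later library was above every day 0 library, and the rise was 3.32 (SE 0.69, adjusted p = 0.002) on day 3 and 2.47 (SE 0.69, adjusted p = 0.0113) on day 7. The day 7 call was lost at 1.49 without OSK-D7 replicate 1 and 2.29 without OSK-D0 replicate 2.

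The other 3 members called higher on day 7, in a count near the background share, were Col17a1, Col18a1 and Col25a1. Col25a1, a membrane-spanning collagen of neurons and muscle, was at 9 and 7 on day 0, 34 and 104 on day 1, 214 and 212 on day 3 and 58 and 44 on day 7. Its rise on day 3 was 4.58 (SE 0.67, adjusted p = 8.06e-05), and that on day 7, 2.53 (SE 0.67, adjusted p = 0.00785), was lost at 2.33 without OSK-D7 replicate 1 and 2.37 without OSK-D0 replicate 2. Col18a1 went from 252 and 152 to 562 and 337, a rise of 1.15 (SE 0.40, adjusted p = 0.034) that was lost at 0.78 without OSK-D7 replicate 1 and 0.79 without OSK-D0 replicate 2. Col17a1, a membrane-spanning collagen of the skin hemidesmosome, went from 0 and 2 to 14 and 9, a rise of 2.82 (SE 0.67, adjusted p = 0.00333) lost at 2.03 without OSK-D0 replicate 1. The 7 keratinocyte markers examined summed to 40 to 78 in OSK on day 7, with Krt15 at 0.

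Between day 3 and day 7, 0 of 42 members were called by limma, and 9 had an unadjusted p below 0.05, as had 25.9% of all genes, with a background by the call rule of 3.37% of genes higher and 4.21% lower. The median fold was -0.63 over the members and 0.00 over all genes. Without OSK-D7 replicate 1 the count was 4, and Col4a1 was among them with a fold of -1.05.

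Between established iPSC and OSK cells of day 7, 9 of 42 members were higher in iPSC (background 14.7%) and 9 lower (background 15.7%). These counts lie not far above the background share. Of the fibrillar and fibril-associated members 6 were higher, among them Col12a1 by 5.43 (SE 0.74, adjusted p = 2.47e-05), Col5a1 by 3.42 (SE 0.38, adjusted p = 2.28e-06) and Col16a1 by 2.90 (SE 0.49, adjusted p = 0.00016). Among the lower members was Col6a5, at 2 and 7 in iPSC, with a fold of -4.52 (SE 0.69, adjusted p = 7.51e-05). The basement membrane pair was lower too, with folds of -2.89 (SE 0.24, adjusted p = 1.02e-07) for Col4a1 and -2.61 (SE 0.43, adjusted p = 0.000137) for Col4a2, and Col25a1 had a fold of -3.60 (SE 0.67, adjusted p = 0.000391). The libraries of the 2 groups did not overlap for these 7 genes, which adds little, since the genes were named for their calls. Other main fibril chains gave no call, with folds of -1.15 for Col1a2, -0.10 for Col3a1, -0.49 for Col5a2 and -0.07 for Col11a1. Col1a1 had a fold of 2.43 (SE 0.87, adjusted p = 0.0343), a call lost at 2.90 without iPSC replicate 1, 1.97 without iPSC replicate 2 and 1.94 without OSK-D7 replicate 2.

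With Jun added, 0 to 4 of the 42 collagens were called against OSK of the same day. With 2 libraries per group, a missing call says little. Jun is a subunit of AP-1, a transcription factor that is active in fibroblasts, and the OSK-cJun series shows how collagens went with Jun held high. On day 0, 0 of 42 members were called by limma, and 1 had an unadjusted p below 0.05, as had 4.44% of all genes. By the call rule 0.0312% of all genes were higher and 0.0436% lower. On day 1 the count was 0 higher (background 1.24%) and 1 lower (0.742%). On day 3 it was 2 higher (4.0%) and 1 lower (3.54%), and on day 7 it was 4 higher (6.76%) and 0 lower (5.03%), counts that lie near the background share. The median fold on day 7 was 0.38 over the members and -0.05 over all genes.

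Col6a5 was higher with Jun on days 3 and 7. In OSK-cJun it stood at 53 and 45 on day 0, 653 and 810 on day 1, 5023 and 3410 on day 3 and 5489 and 2943 on day 7. From day 0 on, both OSK-cJun libraries were above both OSK libraries of the same day. The folds over OSK were 1.29 (SE 0.69, adjusted p = 1) on day 0 and 2.30 (SE 0.69, adjusted p = 0.107) on day 1, neither past the threshold, then 4.35 (SE 0.69, adjusted p = 0.000681) on day 3 and 5.16 (SE 0.69, adjusted p = 0.000109) on day 7, both of which held whichever 1 library was left out. The gene lies on the minus strand of chromosome 9 (chr9:105856078-105960643, GRCm38), in a row with the related Col6a4 and Col6a6. Col6a4 was at 12 and 10 in OSK-cJun and 6 and 3 in OSK on day 7, a fold of 1.18 (SE 0.59, adjusted p = 0.195), and Col6a6 did not pass the filter. Col6a1, which all type VI molecules need, was at 3611 and 5024 in OSK-cJun on day 7, a fold of 1.01 (SE 0.76, adjusted p = 0.419).

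Col3a1 was the other member whose day 7 call held whichever 1 library was left out. In OSK-cJun it stood at 7737 and 11677 on day 0, 3421 and 3784 on day 1, 7737 and 7737 on day 3 and 11677 and 11677 on day 7. On day 1 its values were under those of OSK, and on day 3 and day 7 they were above. The pair of day 3 and that of day 7 each share a step of the scale, so the SE and p-values may be too small. The folds over OSK were -1.14 (SE 0.45, adjusted p = 0.264) on day 1, 1.56 (SE 0.45, adjusted p = 0.0341) on day 3 and 2.62 (SE 0.45, adjusted p = 0.000678) on day 7, the day 3 call being lost at 1.56 without OSK-cJun-D3 replicate 1, 1.56 without OSK-cJun-D3 replicate 2, 1.77 without OSK-D3 replicate 1 and 1.35 without OSK-D3 replicate 2. Col5a2, the next collagen gene on chromosome 1 and transcribed towards Col3a1, was at 987 and 1317 in OSK-cJun on day 7, with a fold of -0.85 (SE 0.32, adjusted p = 0.0791). Col1a1, at 724 and 854, had a fold of 0.23 (SE 0.87, adjusted p = 0.922), and Col5a1, at 224 and 200, one of 0.66 (SE 0.38, adjusted p = 0.271), neither past the threshold. Without OSK-D7 replicate 1 the Col5a1 fold was 1.34 and passed. Col1a2 was at 21544 in all 8 OSK-cJun libraries, with a day 7 fold of 1.45 (SE 0.63, adjusted p = 0.135) over OSK that the top of the scale bounds.

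The other 2 calls on day 7 were less firm, and the count was 2 without OSK-cJun-D7 replicate 1 and 2 without OSK-D7 replicate 2. Col5a3 was at 88 and 78 in OSK-cJun and 35 and 11 in OSK, higher by 2.01 (SE 0.52, adjusted p = 0.0133), lost at 1.93 without OSK-cJun-D7 replicate 1 and 1.22 without OSK-D7 replicate 2. Col4a6 was at 107 and 161 in OSK-cJun and 71 and 51 in OSK, higher by 1.11 (SE 0.37, adjusted p = 0.0455), lost at 1.40 without OSK-cJun-D7 replicate 1, 0.82 without OSK-cJun-D7 replicate 2, 1.35 without OSK-D7 replicate 1 and 0.88 without OSK-D7 replicate 2. The basement membrane pair had day 7 folds of -0.05 (SE 0.24, adjusted p = 0.947) for Col4a1 and -0.05 (SE 0.43, adjusted p = 0.985) for Col4a2. On day 3 Col4a1 was lower, at 2473 and 2409 against 6129 and 6935, a fold of -1.42 (SE 0.24, adjusted p = 0.000963). Col28a1, a small collagen of peripheral nerve, was at 3 and 2 against 73 and 18 on day 1, a log2 fold of -3.44 (SE 0.81, adjusted p = 0.0333) lost at -3.64 without OSK-cJun-D1 replicate 1, -3.23 without OSK-cJun-D1 replicate 2, -2.46 without OSK-D1 replicate 1 and -4.42 without OSK-D1 replicate 2.

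The start-site sequences of the 4 genes called higher with Jun on day 7 are shown because AP-1 binds DNA directly. Each is the 250 bases before the annotated start, read 5′ to 3′ on the gene's strand, from RefSeq on GRCm38.p6. The capitals mark 3 promoter motifs on either strand. The first is GGGCGG, which Sp1 family factors bind. The second is CCAAT, which NF-Y binds. The third is TATAAA, where TBP binds. The AP-1 letters TGANTCA occur in none of the 4. The windows are chr9:105960644-105960893 for Col6a5, chr1:45311288-45311537 for Col3a1, chr9:20815068-20815317 for Col5a3 and chrX:141474077-141474326 for Col4a6, of which Col3a1 is on the plus strand and the others on the minus strand.
Col6a5: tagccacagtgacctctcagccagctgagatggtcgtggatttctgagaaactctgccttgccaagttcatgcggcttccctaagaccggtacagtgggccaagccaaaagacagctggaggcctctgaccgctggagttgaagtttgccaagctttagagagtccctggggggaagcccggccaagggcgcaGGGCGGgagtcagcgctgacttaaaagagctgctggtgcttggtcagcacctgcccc
Col3a1: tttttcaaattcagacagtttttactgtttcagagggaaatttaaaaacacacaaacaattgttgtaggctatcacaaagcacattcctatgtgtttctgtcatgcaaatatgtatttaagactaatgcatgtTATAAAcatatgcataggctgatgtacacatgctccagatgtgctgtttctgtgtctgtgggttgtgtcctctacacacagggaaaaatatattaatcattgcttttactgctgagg
Col5a3: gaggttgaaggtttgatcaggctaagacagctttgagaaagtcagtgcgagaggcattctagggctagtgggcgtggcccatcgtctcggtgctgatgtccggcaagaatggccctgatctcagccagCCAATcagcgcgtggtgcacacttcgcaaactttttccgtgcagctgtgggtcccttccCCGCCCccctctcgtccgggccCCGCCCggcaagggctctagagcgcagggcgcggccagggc
Col4a6: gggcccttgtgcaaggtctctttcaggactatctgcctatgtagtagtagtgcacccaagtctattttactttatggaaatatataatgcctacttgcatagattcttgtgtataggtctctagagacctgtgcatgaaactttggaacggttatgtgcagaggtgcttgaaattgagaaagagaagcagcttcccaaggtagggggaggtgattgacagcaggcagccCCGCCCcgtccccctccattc

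A RefSeq start window was found for 33 of the 42 members. TGANTCA, which reads the same on both strands, occurred in 1 of the 33 (3.03%), in Col6a1, against 7.82% of the 27018 genes with a window. GGGCGG occurred in 20 of 33 (60.6%) against 35.4%, CCAAT in 13 (39.4%) against 37.5% and TATAAA in 4 (12.1%) against 14.3%. None of these letter patterns contains another. These counts describe letters in short windows and say nothing of binding there or elsewhere.

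**Figure D4:**
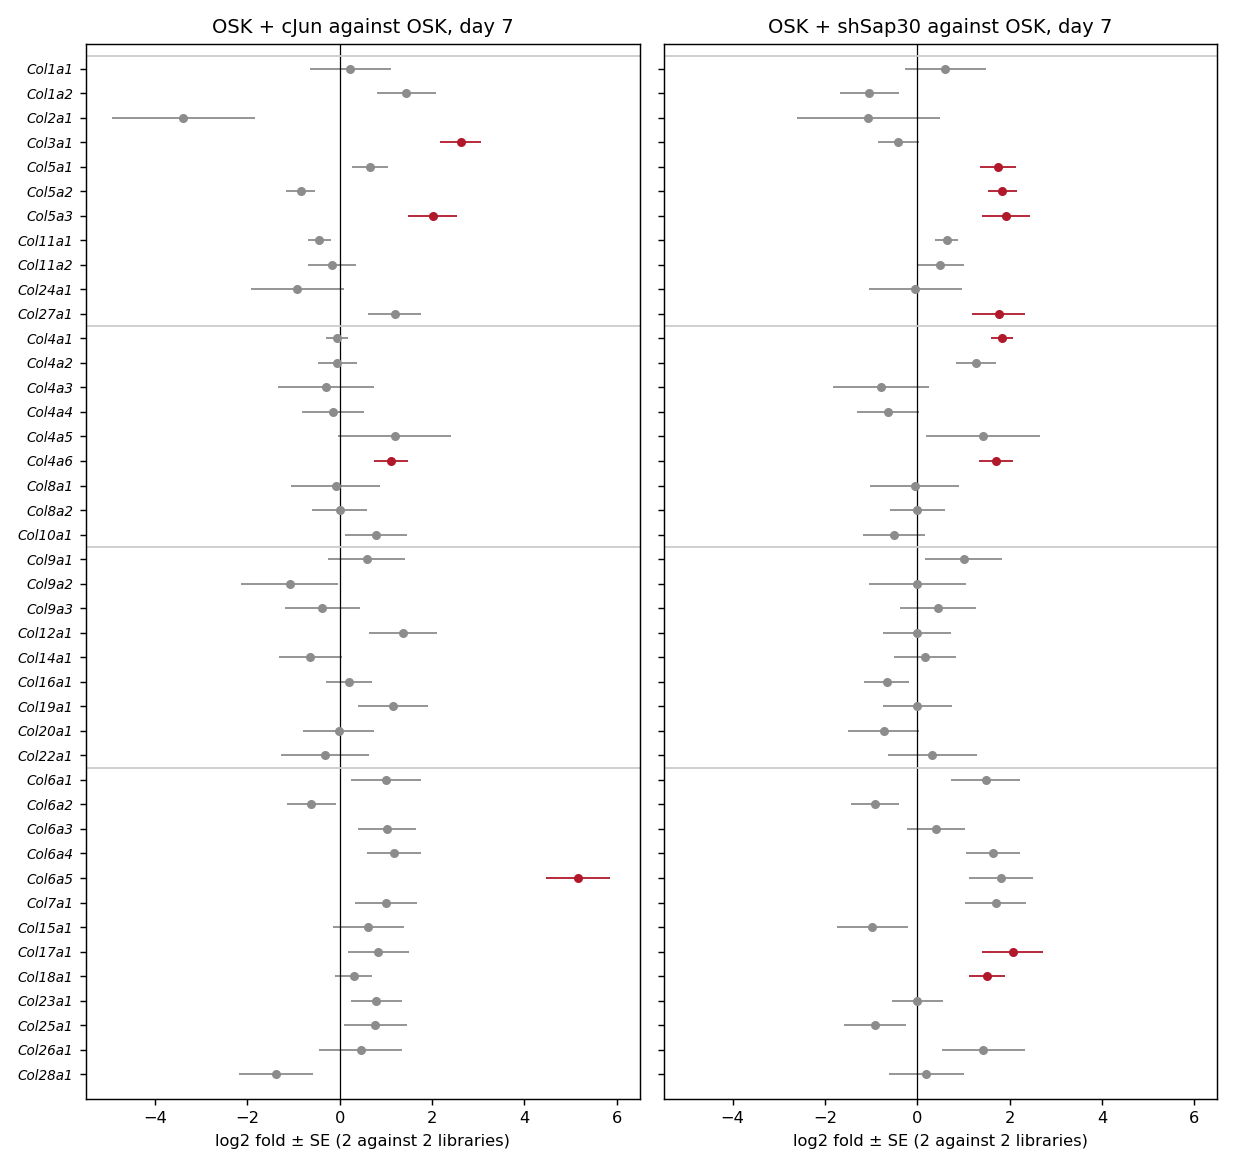
Log2 fold over OSK on day 7 of each collagen chain gene in OSK-cJun (left) and OSK-shSap30 (right), with bars of 1 standard error, red for genes called (adjusted p below 0.05 and a fold of 1 or more) and grey for the rest. Col6a5 and Col3a1 stand out at 5.16 and 2.62 with Jun, and Col4a1 and Col5a2 are called at 1.83 and 1.84 with the hairpin; both panels share the OSK libraries.

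The main fibril collagens other than Col3a1 and Col1a2 fell with Jun added too. From day 0 to day 7 in OSK-cJun, 15 of 42 members were lower (background 8.79%) and 4 higher (8.89%), with a median of -0.82. Col12a1 fell by 5.75 (SE 0.74, adjusted p = 2.44e-05), from 11662 and 11662 to 241 and 194, and Col16a1 fell by 5.06 (SE 0.49, adjusted p = 9.49e-07), from 494 and 401 to 19 and 8. Col5a1 fell by 4.70 (SE 0.38, adjusted p = 1.51e-07), Col1a1 fell by 4.77 (SE 0.87, adjusted p = 0.000684), Col5a2 fell by 4.24 (SE 0.32, adjusted p = 5.99e-08) and Col11a1 fell by 3.68 (SE 0.26, adjusted p = 3.19e-08). In each of these 6 the libraries of the 2 days did not overlap, which adds little, since the genes were called. Col2a1 went from 626 and 1130 to 4 and 47, a log2 fold of -5.76 (SE 1.55, adjusted p = 0.0119) lost at -4.13 without OSK-cJun-D7 replicate 1 and -5.34 without OSK-cJun-D0 replicate 2. Col3a1 had a fold of 0.30 (SE 0.45, adjusted p = 0.722), and Col6a5 rose by 6.33 (SE 0.69, adjusted p = 4.86e-06). The change from day 0 to day 7 was compared between the series by an interaction term, and 2 of 42 members differed, both higher with Jun (background 2.46%), against 0 lower (1.36%). They were Col3a1, with a difference of 2.73 (SE 0.63, adjusted p = 0.0215), and Col6a5, with one of 3.86 (SE 0.98, adjusted p = 0.0367). Neither call held whichever 1 library was left out: Col3a1 was lost at 2.73 without OSK-cJun-D7 replicate 1, 2.43 without OSK-cJun-D0 replicate 1, 2.05 without OSK-D7 replicate 2 and 2.54 without OSK-D0 replicate 2, and Col6a5 at 3.41 without OSK-cJun-D7 replicate 1, 3.98 without OSK-cJun-D0 replicate 1, 3.75 without OSK-cJun-D0 replicate 2, 2.88 without OSK-D7 replicate 2, 3.69 without OSK-D0 replicate 1 and 4.04 without OSK-D0 replicate 2.

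With the Sap30 hairpin, 8 of 42 members were higher than OSK on day 7 (background 4.93%) and 0 were lower (4.92%). The median fold was 0.37 over the members and -0.01 over all genes. The comparison uses the same 2 OSK libraries as that of OSK-cJun on day 7. Of the 8 calls, those of Col4a1 and Col5a2 held whichever 1 library was left out, and the count was 3 without OSK-shSap30-D7 replicate 2 and 2 without OSK-D7 replicate 2.

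Col4a1 stood at 11672 and 11672 with the hairpin against 3415 and 3158 in OSK, higher by 1.83 (SE 0.24, adjusted p = 0.000205), and both hairpin libraries were above every other library of the series for this gene. The 2 hairpin values share a step of the scale, so the SE and p-value may be too small. Col4a2, the partner of Col4a1, was at 4302 and 7717 against 2402 and 2402, with a fold of 1.26 (SE 0.43, adjusted p = 0.0586), just short of the threshold. It passed without OSK-shSap30-D7 replicate 1, at 1.68. Col5a2 was at 6943 and 7737 against 2154 and 1951, higher by 1.84 (SE 0.32, adjusted p = 0.00127), while its neighbour Col3a1 was at 1423 and 1423, a fold of -0.41 (SE 0.45, adjusted p = 0.586). Lama1, the laminin chain of early basement membranes, was at 1122 and 2192 in the same libraries against 666 and 449, and the primitive endoderm list it belongs to summed to 1171 to 2254 with the hairpin and 546 to 775 in OSK, with Sox7 at 0 with the hairpin. Lama1 made up most of that sum, and the other 6 markers together stood at 49 and 62 with the hairpin, under the 109 and 97 of OSK. The part of such cells in the type IV collagen values was not tested.

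The other 6 calls were Col5a1 at 414 and 492 against 216 and 83, Col5a3 at 56 and 108 against 35 and 11, Col4a6 at 197 and 198 against 71 and 51, Col18a1 at 1222 and 1253 against 562 and 337, Col17a1 at 33 and 76 against 14 and 9, and Col27a1 at 5 and 22 against 5 and 1. They were higher by 1.74, 1.92, 1.70, 1.51, 2.06 and 1.76. Each was lost when 1 library was left out, Col5a1 at 1.62 without OSK-shSap30-D7 replicate 2 and 1.06 without OSK-D7 replicate 2, Col5a3 at 1.46 without OSK-shSap30-D7 replicate 2 and 1.13 without OSK-D7 replicate 2, and Col18a1 at 1.52 without OSK-shSap30-D7 replicate 1, 1.49 without OSK-shSap30-D7 replicate 2 and 1.14 without OSK-D7 replicate 2. Col4a6 was lost at 1.46 without OSK-D7 replicate 2, Col17a1 at 1.47 without OSK-shSap30-D7 replicate 2, 2.36 without OSK-D7 replicate 1 and 1.77 without OSK-D7 replicate 2 and Col27a1 at 0.79 without OSK-shSap30-D7 replicate 2 and 0.97 without OSK-D7 replicate 2. Keratinocyte markers, examined because Col17a1 is a skin collagen, summed to 60 to 99 with the hairpin and 40 to 78 in OSK. Col6a5 was at 389 and 396 against 222 and 56, a fold of 1.80 (SE 0.69, adjusted p = 0.0906) that did not pass but did without OSK-D7 replicate 1, at 2.79. Col6a1 was at 5023 and 6925, a fold of 1.48 (SE 0.76, adjusted p = 0.207), and Col1a2 at 3419 and 4318, a fold of -1.04 (SE 0.63, adjusted p = 0.297).

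The enzymes and helpers that make collagen were examined as a list of 45 genes, of which 44 were tested. In OSK on day 7 against day 0, 24 of the 44 were lower (12.6% of all genes) and 0 higher (11.3%), and 5 of 5 lysyl oxidases, which cross-link fibres, and 6 of 7 genes of propeptide removal were among them. Loxl1 fell by 6.68 (SE 0.62, adjusted p = 4.33e-07), Loxl2 fell by 4.67 (SE 0.46, adjusted p = 8.98e-07), and P4ha3, a subunit of the prolyl hydroxylase that stabilises the helix, fell by 5.52 (SE 0.50, adjusted p = 3.12e-07). In ESC against MEF, 35 were lower (20.6% of all genes) and 0 higher (22.4%). The smallest adjusted p values were those of Bmp1, the protease that trims the fibrillar chains, which fell by 8.67 (SE 0.26, adjusted p = 2.07e-13), and Fkbp10, a folding helper, which fell by 7.73 (SE 0.28, adjusted p = 1.61e-12). Lox fell by 9.97 (SE 0.91, adjusted p = 1.16e-07), a larger fold. In iPSC against ESC 20 were higher (4.57% of all genes) and 0 lower (1.65%), with Bmp1 higher by 5.46 (SE 0.26, adjusted p = 3.05e-10). Lox was at 11676 and 11676 in MEF and 55 and 28 in OSK on day 7. The iPSC libraries had 916 and 2266 and the ESC libraries 2 and 44, so Lox was highest in MEF and higher in iPSC than in OSK on day 7, as Col12a1 and Col5a1 were.

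With Jun on day 7, 5 of the 44 were higher than OSK (6.76% of all genes) and 0 lower (5.03%), a count near the background. Pcolce2, which speeds up propeptide removal, was at 514 and 442 against 47 and 30, higher by 3.63 (SE 0.30, adjusted p = 1.25e-06). Itgb1, the beta subunit of collagen-binding integrins, was higher by 2.02 (SE 0.29, adjusted p = 0.000139), and P4ha2, another prolyl hydroxylase subunit, by 2.38 (SE 0.44, adjusted p = 0.00117). Pcolce and Loxl4 were the other 2, by 1.16 and 1.42. With the hairpin 4 were higher (4.93% of all genes) and 2 lower (4.92%), again near the background, Pcolce2 being higher by 3.01 (SE 0.30, adjusted p = 1.66e-05) and P3h3, a prolyl hydroxylase, lower with a fold of -1.64 (SE 0.24, adjusted p = 0.000359).

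Most of the remaining members were low throughout. Col4a3, Col4a4, Col9a1, Col9a3, Col11a2, Col19a1, Col20a1, Col22a1, Col23a1 and Col26a1 reached at most 13, 12, 36, 21, 24, 23, 21, 51, 31 and 47 in any library. Col14a1, which like Col12a1 binds type I fibrils, went from 213 and 267 in MEF to 74 and 47 on day 0 and 17 and 7 on day 7 of OSK. Col24a1, a minor fibrillar chain, went from 89 and 158 in MEF to 36 and 27 in iPSC and was listed at 0 in both ESC libraries. The library kit does not mark strand, and 12 members share exon bases with another gene, 7 of them with a gene of the table, at most 6.07% of the exon bases (Col9a3 with Tcfl5), where reads of the 2 genes cannot be told apart.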

How the data were processed

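Per the labels' protocols, TRIzol RNA went into TruSeq libraries, which were read on a NextSeq 500. The submitters' processing notes name bcl2fastq, Bowtie2, RSEM and the mm10 build, with no versions. The authors deposited 1 table of 18198 genes whose values are a normalised score: whole numbers, with library totals of 4619641 to 4624161. How the score was made is not given in the sources used here, and it was not treated as read counts.

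Values were taken as log2(value + 1) and compared with limma 3.58.1 (R 4.3.3; trended, robust variances) over the 16038 genes with 10 or more in at least 2 libraries, with 1 mean per group over all 26 libraries and Benjamini-Hochberg adjustment over all genes tested. A gene was called at adjusted p below 0.05 and an absolute log2 fold of 1 or more. The script was tested on simulated data. No count model was run, since the values are not counts. Gene coordinates are from GENCODE M21 (GRCm38). No depth can be given, so no counting interval is printed.

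Members with a mean of 500 or more in some group, and up to 6 called members per direction with a mean of 50 or more, are described by library, and others by range. Members, gene lists and tests were chosen with earlier results of these data known. Alternatives were the pseudocount, the filter, the variance model, the libraries in the fit, median centring, a replicate block and each library left out.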

Additional observations from a re-analysis of the deposited data

Results flagged for a closer look

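The change from day 0 to day 7 differed between the OSK-cJun and OSK series for 2 collagen chain genes, by a test of the difference itself (an interaction term in limma). For Col3a1 the difference was 2.73 on the log2 scale (SE 0.63, adjusted p = 0.0215). Its day 7 libraries were at 11677 and 11677 with Jun and 3041 and 1183 without, and its day 0 libraries at 7737 and 11677 and 8995 and 11677. For Col6a5 the difference was 3.86 (SE 0.98, adjusted p = 0.0367), with day 7 libraries at 5489 and 2943 with Jun and 222 and 56 without, and day 0 libraries at 53 and 45 and 22 and 17. Over all genes tested, 2.46% were higher by the same test and 1.36% lower. Neither call held whichever 1 library was left out, and both were lost with only the libraries compared, at adjusted p = 0.0619 for Col3a1 and 0.0604 for Col6a5.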

How the results depend on the processing

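Of 224 counts of called collagen genes under an alternative, 188 were within 1.5 times the reported count and 36 were not. Pseudocount 10 gave 11 calls for OSK-D0 against MEF. For OSK day 7 against day 3, with 0 reported, the count was 1 with pseudocount 0.1, with pseudocount 10 and without the OSK-D5 libraries, and 2 with only the libraries compared. That last fit gave 5 calls for OSK-cJun against OSK at day 3 and 5 for the hairpin. The interaction gave 1 call with pseudocount 0.1 and with untrended non-robust variances, where Col6a5 was lost. With only the libraries compared it also gave 1 call, of a member other than Col3a1 and Col6a5, whose calls were both lost. The causes were not tested.

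With each library left out in turn, counts ran from 28 to 31 for ESC against MEF, 20 to 27 for iPSC against MEF, 17 to 20 for iPSC against ESC and 12 to 17 for iPSC against OSK-D7. They ran from 3 to 5 for OSK-D0 against MEF, and against OSK-D0 from 2 to 4 at day 1, 14 to 16 at day 3, 11 to 14 at day 5 and 16 to 18 at day 7, and from 0 to 4 for day 7 against day 3. With Jun they ran from 0 to 0 at days 0 and 1, 2 to 3 at day 3, 2 to 6 at day 7, 13 to 18 for day 7 against day 0 and 0 to 3 for the interaction, and with the hairpin from 2 to 9.

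Single folds were followed for called members and for a list of named uncalled ones, 241 folds in the main fit. Other uncalled members were left out, so calls they gained or signs they changed are not counted here. Of 3088 such member folds under an alternative, 2768 kept direction and call, 291 lost the call, 18 gained one and 11 changed sign, none of the 11 called. With each library left out, the ranges were -0.011 to 0.44 for Col18a1 in ESC against MEF, and on day 7 against OSK -0.26 to 0.72 for Col1a1, -0.029 to 1.34 for Col5a1, -0.16 to 0.056 for Col4a1 and -0.13 to 0.038 for Col4a2 with Jun, and -1.10 to 0.27 for Col3a1 with the hairpin, and in iPSC against OSK-D7 -0.78 to 0.58 for Col3a1 and -0.28 to 0.14 for Col11a1. Col4a1 was at 0.0063 without OSK-D7 replicate 1.

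The labels number the replicates alike in every group but do not say that a number marks a shared culture or day. Over 78 pairs of groups, the correlation of same-numbered deviations ran from -0.088 to 0.331 and was over 0.1 in 28, so the numbers were not taken to pair the libraries. With the number as a replicate block, 1 member was called for OSK day 7 against day 3, in place of 0, and the other counts were within 1.5 times, with 20 for OSK day 7 against day 0, 4 for Jun at day 7 and 8 for the hairpin. With 2 libraries per group, an unknown depth and a scale that ends at 21544, a missing call says little.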

Other observations

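Col4a5 and Col4a6 lie head to head on chromosome X, with annotated starts 1343 bases apart. In OSK-cJun on day 0 Col4a5 stood at 1679 and 3041, its highest group mean, and Col4a6 at 130 and 282. In ESC Col4a5 stood at 0 and 92 and Col4a6 was listed at 0 in both libraries.

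Col15a1 and Col18a1, related basement membrane collagens, stood differently across the groups. Col15a1 was at 116 and 62 in OSK on day 0, at 30 and 8 on day 7, at 2 and 1 in iPSC and at 0 in both ESC libraries. Col18a1 was at 252 and 152 in OSK on day 0, at 562 and 337 on day 7, at 1278 and 1162 in iPSC and at 815 and 596 in ESC. Col7a1, of the anchoring fibrils of skin, was at 26 and 23 in OSK on day 3 and at 176 and 69 in OSK-cJun. It was not called by limma, with a fold of 2.13 (SE 0.66, adjusted p = 0.0535). These libraries did not overlap, which was also so for other uncalled members, among them Col1a1, Col4a2 and Col12a1. On day 1 and on day 7 the OSK and OSK-cJun libraries of Col7a1 overlapped.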
